A study of Caenorhabditis elegans with 2 samples.

Results

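Binding of UNC-39, which belongs to the sine oculis class of homeodomain proteins, was described at 9 genes of protein folding in the endoplasmic reticulum (ER) and of the unfolded protein response, out of 19973 protein-coding genes in the annotation. The 9 genes are the BiP-type chaperone genes hsp-3 and hsp-4, the calreticulin gene crt-1, the calnexin gene cnx-1, the disulfide isomerase gene pdi-2, the stress sensor genes ire-1, pek-1 and atf-6, and the transcription factor gene xbp-1. They were chosen by name, with the peak signals and ranks of these lists already known, among them the strong peak at hsp-3. Their signals and ranks are therefore given as a description, with no test. All 9 names were found in Ensembl release 115 for WBcel235, and 4 of them (hsp-3, pdi-2, pek-1 and atf-6) lie on X, which holds 13.7% of protein-coding genes.

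The data come from chromatin immunoprecipitation and sequencing of whole Caenorhabditis elegans at the second larval stage (L2), of mixed sex and strain OP186. That strain carries the unc-119 allele ed3 on chromosome III and the insertion wgIs186, an unc-39 construct tagged with eGFP. There is 1 group of 2 biological replicates, which the labels give as separate biosamples, and no untreated or wild-type arm. Whole animals were used, so the cells behind a peak are unknown, and the labels do not give the promoter or the cells that express the construct. The pooled ce11 list, called on both replicates together, holds 30000 peaks and background regions, of which 140 passed the authors' reproducibility threshold. The list of replicate 1 holds 30000 regions and that of replicate 2 holds 24978. Signal is the authors' enrichment value per peak and can be read within a list only. Rank 1 is the highest signal of a list. The depth of each library is unknown, since the lists hold no read counts.

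The ER folds secreted and membrane proteins with the help of chaperones of the BiP, calnexin and calreticulin families and of enzymes that form disulfide bonds. When unfolded proteins accumulate there, the membrane sensors IRE-1, PEK-1 and ATF-6 signal to the nucleus and to the ribosome, and IRE-1 does so by splicing the mRNA of xbp-1. In C. elegans this response is active during larval growth as well as under stress, and hsp-4 is its standard reporter gene, whereas hsp-3 is expressed at a higher constitutive level.

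The sequences that the description turns on are the windows of 201 bases centred on the promoter summits of hsp-3, atf-6 and crt-1, and the 300 bases upstream of hsp-4, the close relative of hsp-3. They are read 5′ to 3′ on the strand of each gene from the RefSeq genome of the same assembly as ce11. Capitals mark matches, on either strand, to the core of the unfolded protein response element (TGACGTG), the heat shock element (GAANNTTC), the fly Six4 core (TGACAC) or the ER stress response element II (ERSE-II), which at crt-1 runs on from TGACGTG. A further 4 words were searched for and are described with the results.
hsp-3, chrX:6092126-6092326, minus strand: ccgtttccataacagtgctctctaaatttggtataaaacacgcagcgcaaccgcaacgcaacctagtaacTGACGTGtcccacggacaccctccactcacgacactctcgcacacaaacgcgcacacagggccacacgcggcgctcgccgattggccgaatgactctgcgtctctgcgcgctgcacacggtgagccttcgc
atf-6, chrX:12480468-12480668, plus strand: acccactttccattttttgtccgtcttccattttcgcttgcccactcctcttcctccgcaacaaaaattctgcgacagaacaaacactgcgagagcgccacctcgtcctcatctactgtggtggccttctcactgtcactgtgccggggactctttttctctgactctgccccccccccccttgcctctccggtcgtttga
crt-1, chrV:6100699-6100899, minus strand: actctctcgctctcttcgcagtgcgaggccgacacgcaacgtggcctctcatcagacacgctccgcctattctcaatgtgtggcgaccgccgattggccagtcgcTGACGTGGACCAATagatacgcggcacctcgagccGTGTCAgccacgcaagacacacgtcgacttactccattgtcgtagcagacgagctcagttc
hsp-4, chrII:7352646-7352945, minus strand: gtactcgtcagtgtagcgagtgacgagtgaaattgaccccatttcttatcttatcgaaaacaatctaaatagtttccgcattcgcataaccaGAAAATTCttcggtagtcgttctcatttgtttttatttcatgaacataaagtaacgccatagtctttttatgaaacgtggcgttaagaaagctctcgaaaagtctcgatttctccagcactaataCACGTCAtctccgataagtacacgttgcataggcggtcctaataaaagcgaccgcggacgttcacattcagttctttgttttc

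Among the 9 genes, hsp-3 had a thresholded UNC-39 peak and atf-6 had a promoter peak just below the threshold, while the other 7 had weaker summits. The highest summit at hsp-3 had a pooled signal of 55.7 (rank 67) and that at atf-6 had 43.4 (rank 176), beside a lowest thresholded signal of 45.9. The next was ire-1 at 29.4 (rank 1225), and the lowest was crt-1 at 14.2 (rank 24374). A thresholded summit in the gene or within 5 kb was thus found for 1 of 9 members, against 1.72% of all protein-coding genes and 3.48% of those on X. A summit among the 1000 of highest signal was found for 2 of 9 members, hsp-3 and atf-6, against 11.2% of all protein-coding genes and 15.7% of those on X. Since the rule for the members used these signals, nothing is read from these shares. Any pooled summit at all was found for 9 of 9 members, against 96.7% of protein-coding genes and 97.3% of those on X.

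**Figure D1:**
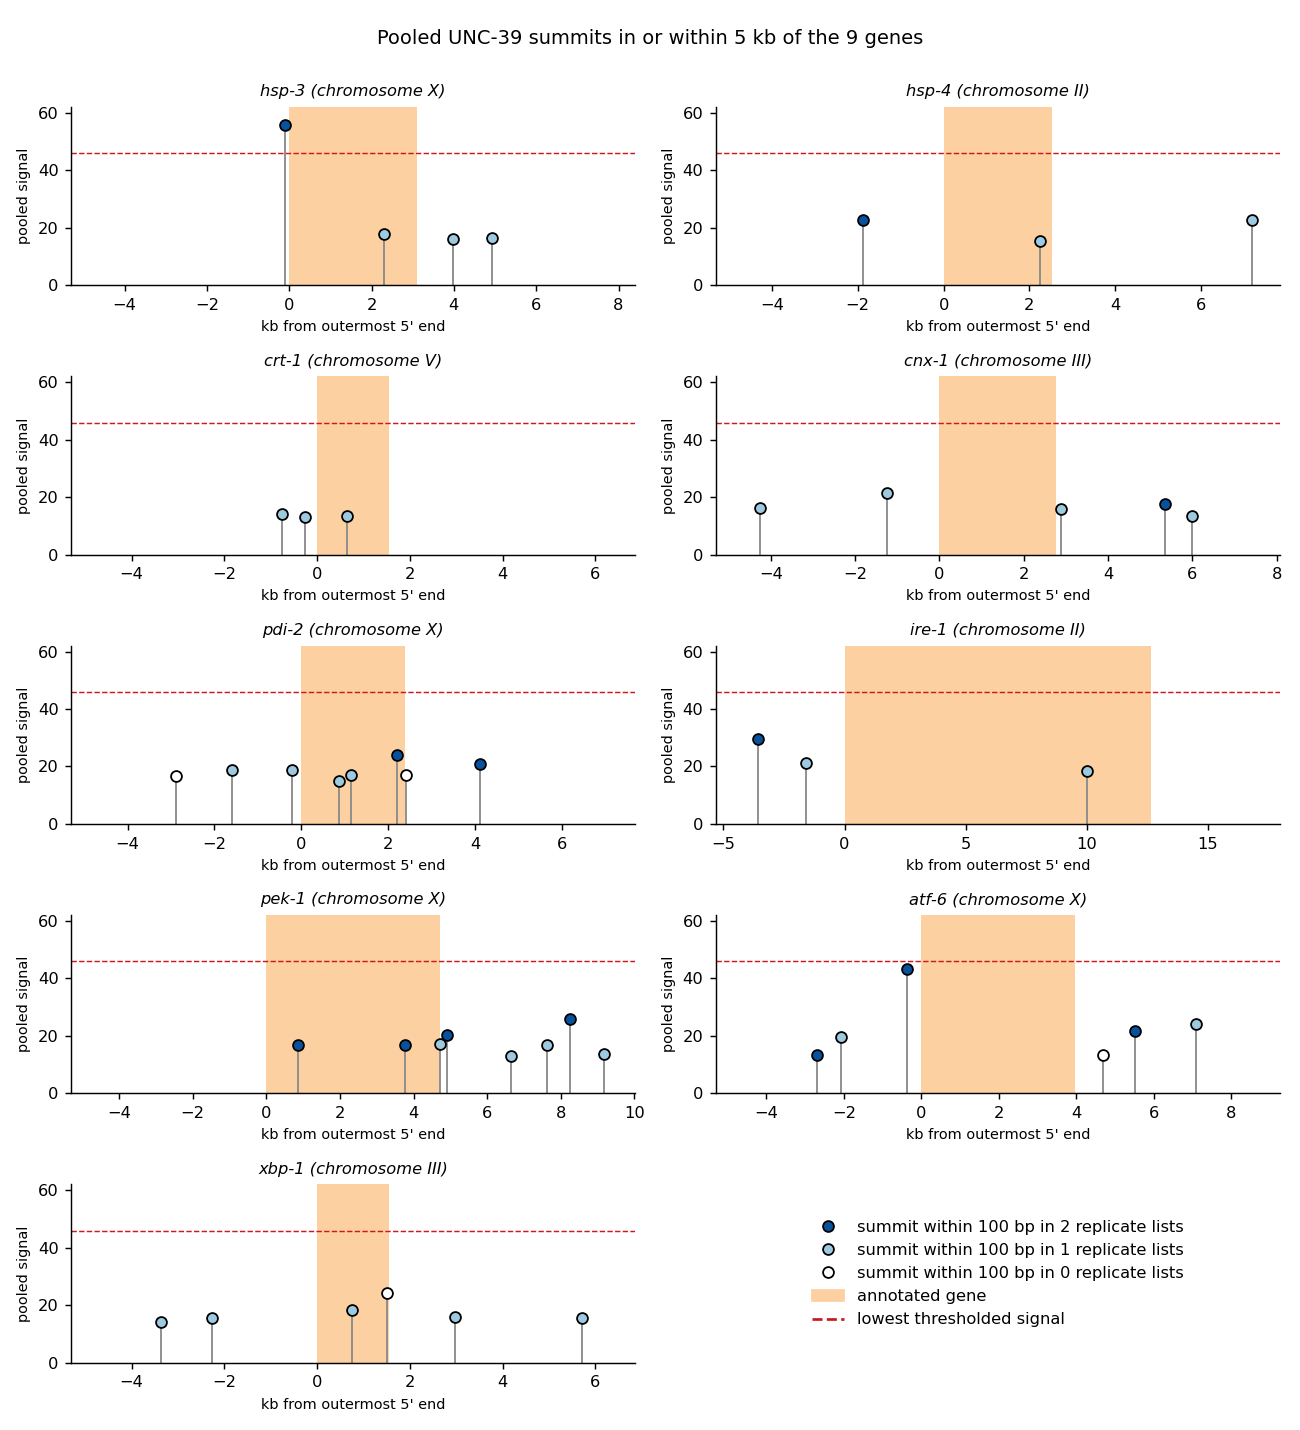
Pooled UNC-39 summits in or within 5 kb of each of the 9 genes, with the distance from the outermost annotated 5' end (kb, along the direction of transcription) on the x axis and the authors' pooled signal on the y axis. Fill shows in how many replicate lists a summit lay within 100 bp, the shaded band is the annotated gene, and the dashed line is the lowest thresholded signal; only hsp-3, at 55.7, passes it, and atf-6, at 43.4, comes close.

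The hsp-3 peak (X, 6092044 to 6092407) had its summit 102 bp upstream of the outermost 5' end of hsp-3 (WBGene00002007; X, 6089028 to 6092124, minus strand) and 463 bp upstream of the outermost coding start. The other annotated 5' ends of hsp-3 lie 339 and 1653 bp further downstream. The summit was between protein-coding genes, and the nearest other 5' end was that of C15H9.5, on the opposite strand, 1074 bp away. In replicate 1 the summit lay 47 bp from the pooled one, with a signal of 29.4 and rank 56. In replicate 2 it lay 4 bp away, with a signal of 26.9 and rank 144. Both replicates thus placed this summit between 55 and 98 bp upstream of the gene, and in replicate 2 it fell just outside the highest 140 peaks. The share of genes with a summit in reach among the highest 140 of a replicate list was 1.72% in replicate 1 (3.44% on X), where hsp-3 was the 1 member, and 1.61% in replicate 2 (3.37% on X), where 0 members were. A thresholded summit in a promoter was found for 1 member, hsp-3, against 0.25% of protein-coding genes and 0.366% of those on X. The other 3 pooled summits in reach of hsp-3 had signals of 18 at most, the highest in a coding exon of hsp-3 itself, and each was matched in 1 replicate list.

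The atf-6 peak (X, 12480386 to 12480749) had its summit 380 bp upstream of atf-6 (WBGene00000222; X, 12480948 to 12484904, plus strand), which encodes a membrane-tethered transcription factor. The annotated gene begins at its coding start. The nearest other 5' end, that of F45E6.1, was 3127 bp away, so atf-6 had the nearest 5' end. In replicate 1 this summit lay 4 bp from the pooled one, with a signal of 22.4 and rank 282, and in replicate 2 it lay 6 bp away, with a signal of 18.8 and rank 597. Both replicate lists thus placed the atf-6 summit within 6 bp of the pooled one, and all 3 lists gave it a lower signal than the hsp-3 summit. The other 5 pooled summits at atf-6 had signals from 13.4 to 24, and the highest of these was in a coding exon of the neighbouring gene tbc-13.

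Of the other chaperone genes, hsp-4 (WBGene00002008; II, 7350112 to 7352645, minus strand) had 3 pooled summits and none in its promoter, taken as the stretch from 500 bp before any annotated 5' end to 100 bp after it. Its highest summit had a signal of 22.7 (rank 4836) and lay 1878 bp upstream, in a coding exon of haf-2. That summit ranked 24737 in replicate 1 and 3082 in replicate 2. The list of replicate 2 also held a summit 12 bp downstream of the hsp-4 5' end, with a signal of 11.9 and rank 5494, for which neither the pooled list nor that of replicate 1 had a partner. The strong promoter summit of hsp-3 therefore had no counterpart of similar rank at hsp-4 in any of the 3 lists.

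The calreticulin gene crt-1 (WBGene00000802, V, 6098992 to 6100542, minus strand) had the weakest of the 9 genes' highest pooled summits. Its 3 pooled summits, 750 and 257 bp upstream and 656 bp downstream of its 5' end, had signals of 14.2, 13.1 and 13.3, beside a minimum of 13 over the whole pooled list. Each was matched in 1 replicate list. The promoter summit, at 257 bp, was found in replicate 1 at the same base (signal 9.97, rank 16955) and not in replicate 2. In replicate 1 the highest summit of hsp-4 ranked below that of crt-1 (24737 against 16955), and in replicate 2 that of cnx-1 did (14720 against 14523). An ncRNA gene, Y38A10A.8, overlaps that window.

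The calnexin gene cnx-1 (WBGene00000567; III, 9814364 to 9817137, minus strand) had 5 pooled summits, the highest with a signal of 21.5 (rank 6254) 1244 bp upstream. That summit was nearer to the 5' end of panl-3, on the opposite strand (675 bp), and was matched in replicate 1 (rank 5331) but not in replicate 2. The gene pdi-2 (WBGene00003963; X, 4524155 to 4526536, plus strand), whose product also serves as a subunit of the collagen prolyl 4-hydroxylase, had 8 pooled summits. Its highest, with a signal of 23.8 (rank 3818), was in its own 3' UTR and was matched in both replicates (ranks 7575 and 11143). The pdi-2 promoter held a summit 209 bp upstream with a signal of 18.7 (rank 10814), matched in replicate 1 at rank 3131 and not in replicate 2.

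The sensor gene ire-1 (WBGene00002147; II, 8112243 to 8124910, minus strand), which encodes the kinase and endoribonuclease that splices xbp-1 mRNA, had its highest summit 3559 bp upstream (signal 29.4, rank 1225). The 5' end of ulp-4, on the opposite strand, was nearer, at 1491 bp. This summit was matched in both replicates, at rank 14493 in replicate 1 and rank 2243 in replicate 2. A further ire-1 summit lay in a coding exon, 26 bp downstream of a second, internal 5' end, with a signal of 18.4 (rank 11554). It ranked 1127 in replicate 2 and had no partner in replicate 1, so the support for it came from a single library.

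The eIF2α kinase gene pek-1 (WBGene00003970; X, 11410176 to 11414887, minus strand), the worm PERK, had 8 pooled summits, none of them upstream of its 5' end. The highest had a signal of 25.8 (rank 2488) and lay 8263 bp downstream of the pek-1 5' end, past the end of the gene and 693 bp upstream of slo-2, a potassium channel gene. It ranked 5138 in replicate 2 and 24378 in replicate 1, there with a signal of 8.69 beside a list minimum of 7.86. Within pek-1 itself the 3 pooled summits had signals from 16.8 to 17.1, close to the pooled median of 17. The list of replicate 1 also held summits 1443 and 4388 bp upstream of pek-1 (ranks 22135 and 24885), neither with a pooled partner.

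The gene xbp-1 (WBGene00006959; III, 4193809 to 4195358, plus strand), whose product is the transcription factor of the IRE-1 branch, had 6 pooled summits and none in its promoter. Its highest, with a signal of 24.3 (rank 3438), lay in its 3' UTR, 1503 bp downstream of its outermost 5' end, and had no summit within 100 bp in either replicate. In replicate 2 the nearest summit was 159 bp further along, just past the end of the gene, with a signal of 22.1 and rank 296. In replicate 1 the nearest was 756 bp away, inside the gene, with a signal of 14.2 and rank 4515. The replicates thus differed at the 3' end of xbp-1. There replicate 2 had a summit in its highest 1.19%, 159 bp from the pooled one, and the nearest of replicate 1 was 756 bp away.

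**Figure D2:**
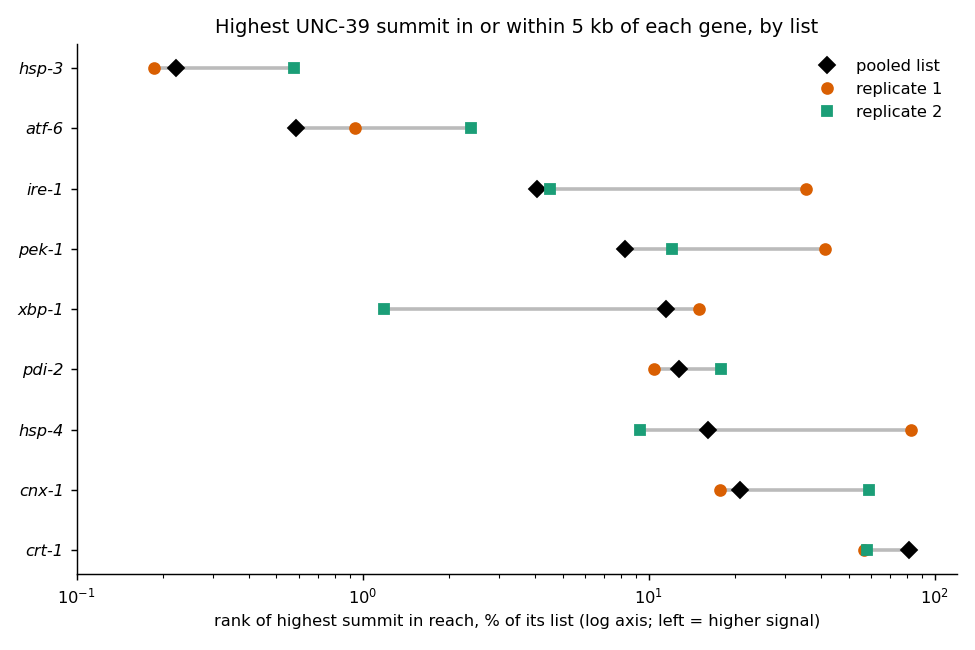
Rank of the highest summit in or within 5 kb of each gene, as a percentage of the length of its list (log axis, left is higher signal), in the pooled list (diamonds), replicate 1 (circles) and replicate 2 (squares). The grey bar joins the values of a gene and is no error bar, and the highest summit can be a different site in each list. Both hsp-3 and atf-6 lie within the top 2.39% in all 3 lists. The values of hsp-4 run from 9.29% in replicate 2, at a summit in an intron of nhr-21, to 82.5% in replicate 1, at the summit in haf-2. That haf-2 summit is at 12.3% in replicate 2.

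Across the 3 lists, hsp-3 came before atf-6, and both came before the remaining genes in the pooled list and in replicate 1. In replicate 2 the order was hsp-3 (rank 144), xbp-1 (rank 296) and atf-6 (rank 597), followed by ire-1 (rank 1127). Below these the order of neighbours was not stable. The gene ire-1 was the third in the pooled list but ranked 10681 in replicate 1, behind pdi-2 (3131), xbp-1 (4515) and cnx-1 (5331). Each rank is that of the highest summit of a gene in that list, which need not be the same site. At ire-1 it lay 3559 bp upstream in the pooled list. It lay inside the gene in replicate 1, where a 5' end of the overlapping gene unc-105 was nearer, and at the internal 5' end in replicate 2. At pdi-2 it lay in the 3' UTR in the pooled list and in the promoter in replicate 1. With 2 replicates and ranks this far apart, the order of the 7 genes other than hsp-3 and atf-6 cannot be told from the lists. The place of atf-6 ahead of these 7 did not hold in replicate 2, where xbp-1 came before it.

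Of all protein-coding genes, 0.866% had a summit in reach as high as that of hsp-3 or higher, and 2.08% had one as high as that of atf-6. Among genes on X these shares were 1.94% for hsp-3 and 4.14% for atf-6. For ire-1 the share was 13.6% of all genes, for pek-1 25.7%, for xbp-1 33.8%, for pdi-2 36.8%, for hsp-4 44.1%, for cnx-1 52.6% and for crt-1 93.9%. The median rank of the highest summit was 3438 over the 9 genes, beside 5511 over the protein-coding genes with a summit in reach and 4565 over those on X. As a percentage of the list, that median was 11.5% over the 9 genes and 18.4% over all genes in the pooled list. In replicate 1 alone it was 17.8% over the 9 genes and 17.9% over all genes, and in replicate 2 it was 9.29% and 21.3%. Within 1 kb, in the pooled list, it was 26.7% over the 9 genes and 32.3% over all genes. The lower median of the 9 genes was thus not seen in the list of replicate 1.

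**Figure D3:**
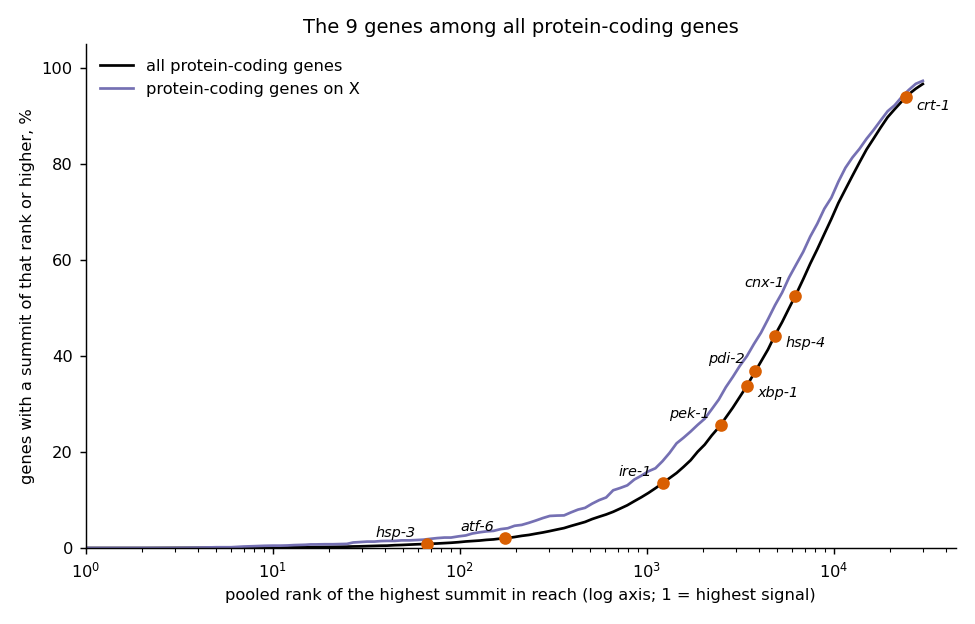
Share of protein-coding genes (y axis, %) with a summit in or within 5 kb at a given pooled rank or higher (x axis, log), for all genes (black line) and genes on X (purple line). Orange points place the 9 genes on the line of all genes; hsp-3 (0.866%) and atf-6 (2.08%) stand at the low end and crt-1 (93.9%) at the high end.

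In all, 46 pooled summits lay in or within 5 kb of the 9 genes, 3.67 per 10 kb of that sequence, beside 2.99 per 10 kb of the genome. The genome value includes sequence out of reach of any gene, and the density in reach of all protein-coding genes was not computed. The median signal of the 46 summits was 17, the same as that of the whole list to this precision. Of these summits, 12 were inside the member gene, 16 upstream and 18 downstream. The annotation placed 19 between protein-coding genes, 14 in coding exons, 8 in introns, 4 in 3' UTRs and 1 in a 5' UTR, counting any protein-coding gene. For 27 of the 46 the nearest 5' end belonged to a neighbouring gene, so most summits in reach cannot be assigned to the folding genes by position. A promoter summit was present at 5 members (hsp-3, atf-6, crt-1, pdi-2 and, at its internal 5' end, ire-1), against 22.6% of all protein-coding genes and 27.3% of those on X.

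A summit within 100 bp was found in both replicate lists for 13 of the 46 (28.3%), beside 19% of all pooled summits. Another 14 were matched in replicate 1 only, 15 in replicate 2 only and 4 in neither. Among the 9 member summits of rank 5000 or higher, 6 were matched in both replicates (66.7%, beside 59.4% of all such pooled summits), and the one matched in neither was at the xbp-1 3' UTR. Among the 37 lower-ranked ones, 7 were matched in both (18.9%, beside 11%). For the thresholded peaks as a whole the share was 86.4%.

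The word TGACGTG, the core of an element through which XBP-1 and ATF6 act in mammals, was present in the 300 bases upstream of 3 of the 9 genes, hsp-3, hsp-4 and crt-1, and in 2.82% of protein-coding genes. The GA repeat GAGAGAGA was also upstream of 3 of the 9 (pdi-2, cnx-1 and xbp-1), beside 3.69% of genes. The heat shock element was upstream of 3 too (pek-1, hsp-4 and xbp-1), beside 19% of genes. The first base of TGACGTG lay 132 bp upstream of the 5' end at hsp-3, 83 bp at hsp-4 and 252 bp at crt-1. In the windows printed above it is 24 bp from the hsp-3 summit at its nearest base. At crt-1 it overlaps a match to ERSE-II on the opposite strand, a word that was added after the sequences were seen and that is in 0.01% of upstream sequences and 0.0133% of pooled summit windows. The 3 genes with TGACGTG thus had very different UNC-39 values: a thresholded promoter summit at hsp-3, none in the pooled list at hsp-4, and one near the bottom of the list at crt-1 (rank 29295). Among the 46 member windows 3 held TGACGTG, those of the hsp-3 and crt-1 promoters and one in an intron of pdi-2 (rank 21509). Of all pooled windows 2.07% held it, and of the 140 thresholded windows 1.43%.

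The other words gave no match in the window of atf-6, and none but TGACGTG in that of hsp-3. The sine oculis core TGATAC, in 6.74% of pooled windows, the MEF3 word TCAGGTTTC, allowing 1 mismatch, in 6.3%, and the ER stress response element (ERSE), in 0.0133%, were in 0 of the 46 member windows of 201 bases. In windows of 400 bp TGATAC was in 5 of the 46, beside 13.1% of pooled windows, and it was also in the 300 bases upstream of xbp-1, as in 9.43% of genes. The fly Six4 core TGACAC was in 8 of the 46, beside 8.23% of pooled windows, and the heat shock element GAANNTTC, which reads the same on both strands, in 7, beside 12.8%. The GA repeat GAGAGAGA, which is in 19.3% of thresholded and 2.47% of pooled windows, was in 3 member windows, at ire-1, pdi-2 and pek-1, and in neither that of hsp-3 nor that of atf-6. A match is a string of letters only, and a missing match says nothing about binding of a factor.

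The windows of hsp-3 and atf-6 were rich in G and C, at 58.7% and 54.7%, beside a median of 50.2% in thresholded and 38.3% in all pooled windows. Windows with as much GC as that of hsp-3 or more were 0.483% of the pooled list, and 1.75% for atf-6. The crt-1 promoter window had 59.2% GC, as high as that of hsp-3, with a signal of 13.1 against 55.7. Over the 356 pooled windows with 55 to 60% GC the median signal was 19.9, and 6.46% of them were thresholded. Thresholded shares were 0.0695% at 35 to 40% GC, 0.381% at 40 to 45% and 3.49% at 50 to 55%. Of the 88 windows with 60% GC or more, 2.27% were thresholded. The part of base composition in the signal was not tested.

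**Figure D4:**
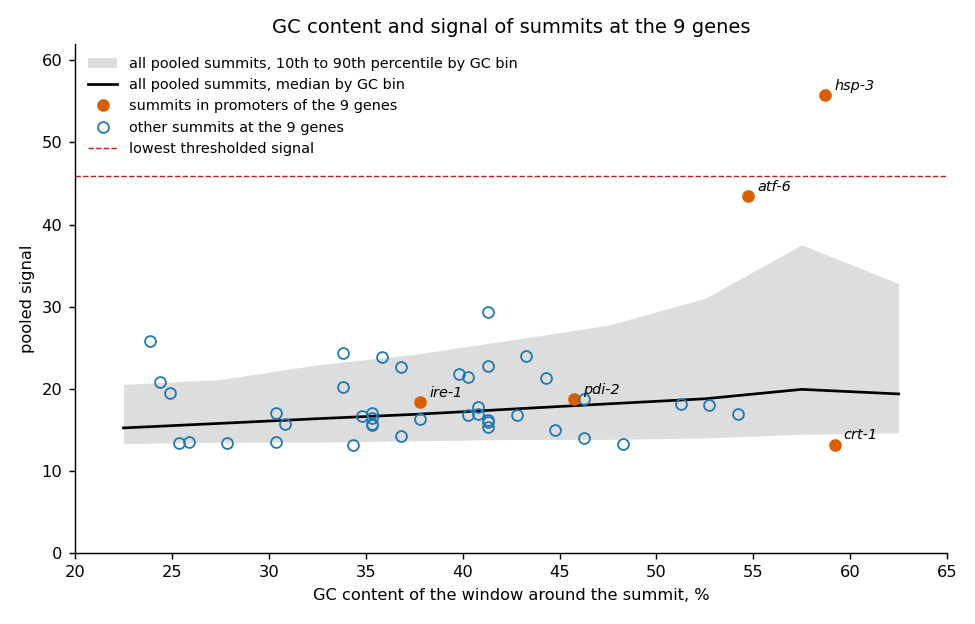
GC content of the 201-base window around each pooled summit at the 9 genes (x axis, %) and its pooled signal (y axis), with promoter summits filled and other summits open. The line and the grey band are the median and the 10th to 90th percentile over all pooled summits by GC bin; the promoter summits of hsp-3 (55.7) and crt-1 (13.1) have nearly the same GC content.

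The thresholded peaks most like that of hsp-3 were sought among 68 others with a protein-coding 5' end within 1000 bp, by the distance between their ranks in the pooled list and in both replicate lists on a log10 scale. The 5 nearest, in order, were at tax-6 (ranks 74, 51 and 173), rpl-12 (49, 50 and 145), cdc-48.1 (63, 60 and 238), unc-115 (72, 87 and 204) and brc-1 (85, 46 and 234). The distances ran from 0.0993 to 0.25, over 3 lists that are not independent, since the pooled one was called on both replicates together. The signal at cdc-48.1 was 56.3 and its summit lay 183 bp upstream of the 5' end. At tax-6, the nearest in rank, the signal was 54.6 and the summit lay 933 bp downstream. The summits at rpl-12, unc-115 and brc-1 lay upstream.

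Genes of the same pathway outside the 9 were taken from lists of names, and their counts stand beside the shares over all protein-coding genes, 1.72% with a thresholded summit and 11.2% with one among the highest 1000. Of 14 other ER folding genes, which include co-chaperones, disulfide isomerases and the glucosyltransferases of glycoprotein quality control, 0 had a thresholded summit in reach and 3 had one among the highest 1000. These were pdi-3 (rank 461), C14B9.2 (rank 527) and T14G8.3 (rank 863), and at each of them another gene's 5' end was nearer to the summit. The pdi-3 summit was matched in replicate 1 only (rank 487) and that of T14G8.3 in replicate 2 only (rank 563). The C14B9.2 summit ranked 326 in replicate 1 and 4826 in replicate 2. Of 10 genes of ER-associated degradation, which sends misfolded proteins to the proteasome, 1 had a thresholded summit, cdc-48.1 (rank 63), which encodes the AAA ATPase that extracts proteins from the membrane. Of 18 genes of signalling in the unfolded protein response and of the abu family, induced when that response is blocked, 17 had a pooled summit and 0 a thresholded one, with abu-1 (rank 355, 260 bp upstream) and abu-11 (rank 480, with the 5' end of T01D1.5 nearer) among the highest 1000. Of 7 genes of protein translocation and glycosylation, 0 had a thresholded summit, and dad-1 (rank 791) was among the highest 1000, with the 5' end of tre-1 nearer. The median rank of the highest summit was 3438 in the 9 genes, and 4805, 7035, 8923 and 4785 in these lists in turn, beside 5511 over all genes with a summit. Since the median of the 9 genes depended on the replicate and the reach, no order is read from these medians.

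**Figure D5:**
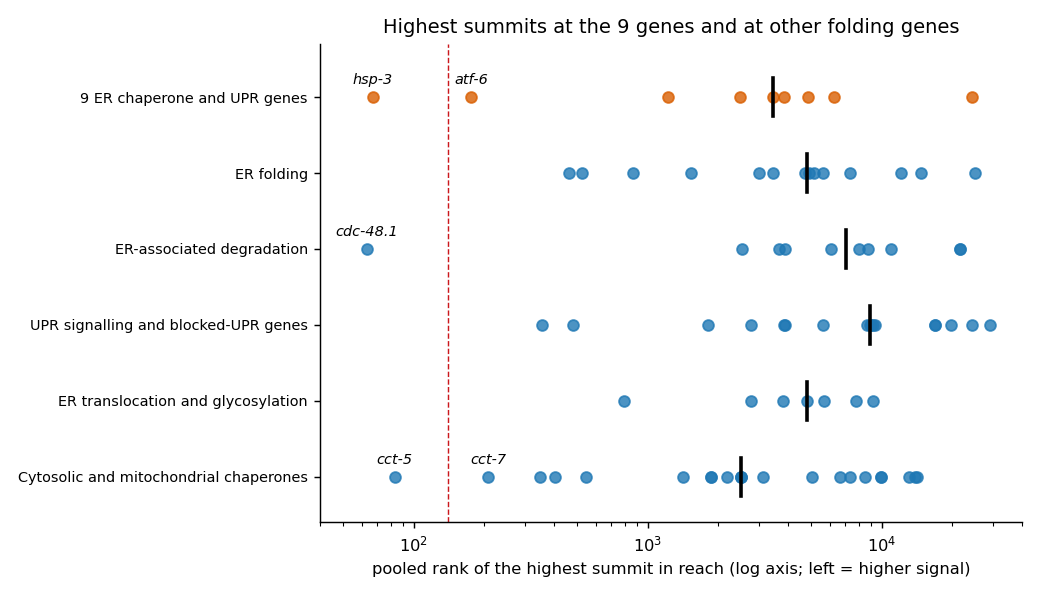
Pooled rank of the highest summit in or within 5 kb of each gene (x axis, log, left is higher signal) for the 9 genes (orange) and for 5 lists of other folding genes (blue), with the list median as a black bar and rank 140, the last thresholded rank, as a dashed line. To the left of the line are hsp-3 (67), cdc-48.1 (63) and cct-5 (83).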

How the data were processed

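Peak lists in narrowPeak format were used as the authors deposited them. Per the file listings deposited with the samples, peaks were called on each replicate's ce11 alignment and on both together, each with a control alignment, and the thresholded list was made from these with the irreproducible discovery rate. The labels and listings name no caller, version or threshold. The signal in the seventh column, deposited per peak, is the authors' enrichment value. All peaks of a list have 1 width, with the summit at the centre. The ce10 lists and the control library were not analysed here.

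Summits were assigned to every gene that held them or lay within 5 kb, with Ensembl 115 positions for WBcel235, the assembly of ce11, and were matched between lists within 100 bp. Tied signals got the best rank. Words were searched on both strands of 201 bases around each summit and of 300 bases upstream of the outermost 5' end of each gene. Annotated 5' ends in worms can be sites of trans-splicing and not of transcription start. Python 3.11.15, numpy 2.4.6 and pandas 2.3.3 were used, and assignment and word search were checked on simulated data. The matching of summits between lists was not checked in this way.

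The members, gene lists and words were chosen with earlier results of these data known. Named genes are the 9 members, genes of the lists with a thresholded summit or one among the highest 1000 in reach, nearest neighbours of summits, and the 5 genes most like hsp-3 in rank. The medians over all genes within 1 kb and in each replicate list, and the share of pooled windows of 400 bp with TGATAC, were added after seeing the data. ERSE-II was added after the sequences were seen, and the letters of both ERSE words are not printed. Of 74 listed genes 71 were matched, and emo-1, hsp-16.11 and hsp-16.49 were not used. There is 1 group of 2 replicates, so no test was made. Alternatives changed the reach, the assignment, the list, the threshold, the match and the window.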

Additional observations from a re-analysis of the deposited data

How the results depend on the processing

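Each of the 9 genes had a pooled summit within 1, 2 and 10 kb and a summit in each replicate list, and 8 had one by nearest 5' end. One member had a thresholded summit within 1, 2, 5 and 10 kb, by nearest 5' end and in the upper 70 thresholded peaks. Among the 1000 highest pooled peaks the number was 2, with atf-6 added. With each replicate's own highest 140 peaks the number was 0 to 1: without replicate 1, the hsp-3 summit ranked 144 in the list of replicate 2. The number of pooled summits, 46 as reported, was 22 within 1 kb, 71 within 10 kb and 19 by nearest 5' end, since the reach sets how much sequence is counted. The median rank of the highest summit, 11.5% of the list as reported, was 26.7% within 1 kb and 9.29% to 17.8% when either replicate was left out. Summits matched in both replicates were 7 within 50 bp, against 13 within 100 bp. Member windows with any of the 7 words numbered 17 in windows of 201 bases, against 9 in windows of 100 bp and 24 in windows of 400 bp. At 100 bp GAGAGAGA was in 0 windows, against 3, and GAANNTTC and TGACAC in 4 each, against 7 and 8. At 400 bp TGATAC was in 5, against 0. Depth was not known, so it cannot be said how far it set the ranks of the replicates. No paired analysis was possible because there is 1 group.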

Other observations

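Cytosolic and mitochondrial chaperone genes were listed as a contrast to those of the ER, together with the heat shock factor gene hsf-1 (rank 6645). The median rank of the highest summit was 2517 over 22 matched genes, hsf-1 included, beside 3438 over the 9 ER genes. Over all protein-coding genes with a summit it was 5511. The genes hsp-16.2 and hsp-16.41 shared their highest summit (rank 2515), as did hsp-16.1 and hsp-16.48 (rank 9947), and each gene was counted. One of the 22, cct-5, a subunit gene of the cytosolic chaperonin, had a thresholded summit (rank 83, signal 52.9), 2170 bp downstream of its nearest 5' end, matched at rank 67 in replicate 1 and rank 220 in replicate 2. Among the highest 1000 were 5 of the 22, cct-5 among them. Over all protein-coding genes 1.72% had a thresholded summit in reach and 11.2% had one among the highest 1000. The 4 besides cct-5 were the chaperonin genes cct-7 (rank 209) and cct-1 (rank 402), the HSP90 gene hsp-90 (rank 347) and the HSP70 gene hsp-1 (rank 544). At cct-7, cct-1 and hsp-90 another gene's 5' end was nearer to the summit. The hsp-90 summit ranked 97 in replicate 2 and had no partner in replicate 1, whereas the hsp-1 summit ranked 234 in replicate 1 and 10575 in replicate 2.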
